A study of Mus musculus with 29 samples.

Results

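The hypothalamus of 18-month-old mice was set against that of 12-month-old mice, with 3 libraries at 18 months (replicates 14, 15 and 16) and 3 at 12 months (replicates 26, 27 and 28), which are 6 of the 29 libraries of the series. All came from wild-type (WT) C57BL/6 males, each housed alone on an equal cycle of light and dark (12 h of each) with free food and water. The tissue was dissected near 6 h into the light phase and stored in RNAlater. Paired-end RNA sequencing gave counts per gene, and the comparison asked which transcripts differ between 12 and 18 months of age. The labels do not say whether a library came from 1 mouse or a pool, so p-values measure the spread between libraries.

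The hypothalamus lies at the base of the forebrain and joins the brain to the pituitary and the autonomic system. Its nuclei hold neurons that set feeding, body temperature, water balance, reproduction and the daily clock, among them the suprachiasmatic nucleus, whose neurons use Vip to keep in step. In the aging mouse brain, interferon-induced genes and microglial activation genes are known to increase, and the daily clock and protein folding are systems studied in aging.

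The 6 libraries held the RNA of neighbouring structures in unequal amounts. Depth was 25183002 to 33830849 gene counts at 18 months and 24661631 to 27936518 at 12 months. Spearman's rho over genes was 0.9913 to 0.9968 within 18 months and 0.9877 to 0.9932 within 12 months. Between the ages it was 0.9904 to 0.9968, so pairs across the ages lay within the range of pairs of the same age. The choroid plexus gene Ttr, a carrier of thyroid hormone, was at 3037, 930 and 870 CPM (counts relative to the library's gene total, on the usual CPM scale, with library sizes scaled by TMM) at 18 months and at 10.9, 1554 and 4548 CPM at 12 months. The 12-month replicate 28 also held the most meningeal and blood RNA (Dcn 45.7 CPM, Hbb-bs 277 CPM) and the least RNA of thalamus markers (a sum of 1706 CPM, against 2399 and 3246 CPM in the other 12-month libraries and 2300 to 3103 CPM at 18 months). The 18-month replicate 15 held more small noncoding RNA (Rn7sk 22.04 CPM, against 0.797 and 3.11 CPM in the other 18-month libraries and 1.16 to 1.53 CPM at 12 months). The 12-month replicate 26 held pineal-type RNA (Tph1 1.80 CPM, against at most 0.272 CPM at 18 months and 0.155 and 0.589 CPM in the other 12-month libraries). The hypothalamic regulator Nkx2-1 was found in every library, at 16.3 to 25.98 CPM at 18 months and at 14.6 to 27.9 CPM at 12 months. The titles of all 6 libraries carry the letters tha, which the labels do not explain, while their tissue label is hypothalamus. The thalamus marker Prkcd, a protein kinase C gene, was at 222, 329 and 275 CPM at 18 months and at 178, 308 and 86.8 CPM at 12 months, and was found in every library. In bulk tissue, fewer cells of a type and less RNA per cell cannot be told apart.

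No gene was called different between the ages. Of 16916 genes tested, 0 (0%) passed an adjusted p below 0.05 in edgeR's quasi-likelihood test, and the smallest adjusted p was 0.916. At an unadjusted p below 0.05 there were 410 genes (2.42%), of which 151 (0.893%) were higher and 259 (1.53%) lower at 18 months. The 2.42% was below the share of 0.05 that this threshold would pass if no gene differed. DESeq2 called 1 gene, Hsp90b1 (log2 fold change -0.22, adjusted p = 0.0113), and had 401 genes at an unadjusted p below 0.05. The libraries of the ages did not overlap for 399 genes (2.36%) that were higher and for 508 (3.00%) that were lower at 18 months. Of all genes, 48.9% had a log2 fold change above 0 and 51.0% one below 0, with a median of -0.0027 and a median size of 0.0747.

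Changes of the size of 2-fold could be bounded for most genes. The 95% interval of the log2 fold change lay between -1 and 1, a 2-fold difference, for 14352 genes (84.8%), and within a 1.5-fold difference for 11888 (70.3%). Among 12293 genes with at least 5 CPM in the higher age the first share was 97.8%. Only 13 of these had an estimated difference above 2-fold. The plot of fold change against p shows the spread of all genes and the 24 named by rule, which are the 12 of smallest unadjusted p in each direction among genes that average 5 CPM or more in 1 of the ages and whose libraries did not overlap.

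**Figure D1:**
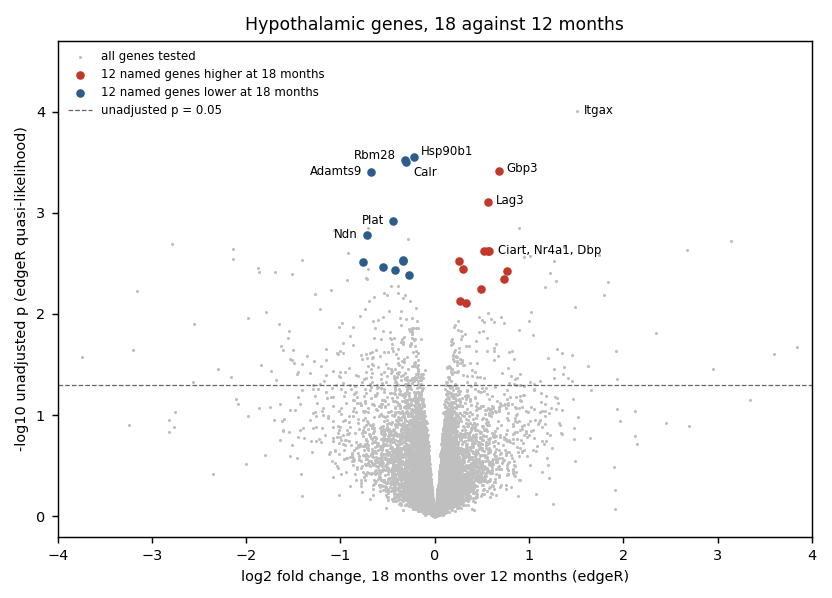
Log2 fold change of 18 months over 12 months (x axis) against -log10 of the unadjusted p of edgeR's quasi-likelihood test (y axis) for the genes tested, with the 24 named genes in red (higher at 18 months) and blue (lower). No gene passed an adjusted p below 0.05, and 4 genes lie beyond the plotted range of fold change.

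Clock genes were among those with the smallest p on the side higher at 18 months. The molecular clock is a loop in which the proteins of Arntl and Clock activate Per and Cry genes, whose products then repress them, and outputs such as Dbp and Tef carry the rhythm to other genes. Of 19 genes of this list, 9 were higher at 18 months at an unadjusted p below 0.05 and 0 were lower, where 0.893% of all genes tested were higher. The median log2 fold change of the list was 0.18, and 16 of 19 were above 0. No member passed an adjusted p below 0.05 (edgeR, adjusted p = 1 for Dbp and for Ciart).

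Dbp, an output transcription factor that binds D-boxes, was at 52.7, 53.9 and 61.6 CPM at 18 months and at 39.1, 35.3 and 38.7 CPM at 12 months. Every 18-month library was above every 12-month library, with a log2 fold change of 0.57 (95% interval 0.23 to 0.92, unadjusted p = 0.00238 by edgeR). Ciart, a repressor of the Arntl and Clock complex, was at 16.3, 13.5 and 12.1 CPM at 18 months and at 10.6, 10.2 and 8.28 CPM at 12 months. These did not overlap either (log2 fold change 0.52, 95% interval 0.21 to 0.84). Per1, a repressor that also responds acutely to light and hormones, was at 77.9, 63.9 and 66.9 CPM at 18 months and at 56.6, 55.2 and 46.2 CPM at 12 months. Its log2 fold change was 0.40 (95% interval 0.03 to 0.77), again with no overlap. Dbp and Ciart are among the 24 named genes, for which the naming rule requires no overlap. Of the 19 clock genes, 7 were higher and 0 lower at 18 months with no overlap, against 2.36% and 3.00% of all genes.

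Of the other clock members, chosen for naming after their values were seen, Per2, Cry2, Bhlhe41 and Nr1d2, all repressors in the loop, were higher in each 18-month library than in each 12-month library. Their log2 fold changes were 0.45 for Per2, 0.13 for Cry2, 0.21 for Bhlhe41 and 0.17 for Nr1d2. Per3 (0.45) and Tef (0.16) also had an unadjusted p below 0.05, but their libraries overlapped. The activators differed little: Arntl had a log2 fold change of -0.10 (95% interval -0.35 to 0.15) and Clock one of 0.01 (95% interval -0.17 to 0.19). Without the 12-month replicate 28, 3 clock members were left at an unadjusted p below 0.05, and 5 were left without the 18-month replicate 14 or 16.

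Among the adult ages, 12 months had the lowest Dbp. Dbp averaged 63.2, 60.9, 37.7, 56.1 and 44.9 CPM at 2, 6, 12, 18 and 24 months, and Ciart averaged 11.8, 13.4, 9.67, 13.9 and 11.2 CPM. In 24 against 6 months, a comparison that uses none of the 6 libraries, the list median was -0.07 and 6 of 19 members were above 0. Dbp was lower there, at 43.0 and 46.8 CPM at 24 months and at 63.7, 55.9 and 63.1 CPM at 6 months, with an unadjusted p of 0.0278 and an adjusted p of 0.44 by edgeR.

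The promoters of the clock genes can be searched for the E-box CACGTG, which the Arntl and Clock complex binds. RefSeq promoter windows (GRCm38.p6, 250 bases before to 50 after the start) were found for 17 of the 19 genes, and 5 of them held CACGTG, against 8.09% of all 27025 genes with a window. The D-box form TTATGTAA, searched on both strands, was in 1 of the 17 (Per3), against 1.11% of all genes. The 5 were Bhlhe41, Ciart, Cry1, Per1 and Tef. Ciart and Per1 are printed as examples whose values did not overlap between the ages, with the E-box in capitals. Bhlhe41 met the same conditions and is not printed. A match is a description of the window and not a measured binding site.
Ciart, chr3:95882179-95882478, minus strand: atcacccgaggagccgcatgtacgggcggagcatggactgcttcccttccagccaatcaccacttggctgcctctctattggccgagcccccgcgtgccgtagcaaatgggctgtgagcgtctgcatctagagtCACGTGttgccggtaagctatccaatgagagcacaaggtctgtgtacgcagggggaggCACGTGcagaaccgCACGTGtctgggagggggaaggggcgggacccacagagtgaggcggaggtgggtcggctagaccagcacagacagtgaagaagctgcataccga
Per1, chr11:69098699-69098998, plus strand: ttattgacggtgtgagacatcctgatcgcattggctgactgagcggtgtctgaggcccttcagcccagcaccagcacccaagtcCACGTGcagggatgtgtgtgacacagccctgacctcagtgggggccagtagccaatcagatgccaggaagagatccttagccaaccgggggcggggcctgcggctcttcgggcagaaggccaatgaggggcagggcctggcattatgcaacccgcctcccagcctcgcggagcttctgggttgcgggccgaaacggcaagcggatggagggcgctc
The Ciart window held 3 matches and the printed Per1 window 1.

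Immediate early genes, which neurons transcribe within minutes of stimulation, had a higher list median at 18 months than any other list. Their median log2 fold change was 0.37, 17 of 24 members were above 0 (48.9% of all genes), and 5 were higher and 0 lower at an unadjusted p below 0.05 (0.893% of all genes were higher). Nr4a1, an orphan nuclear receptor induced by activity, was at 17.6, 22.2 and 24.2 CPM at 18 months and at 13.1, 15.4 and 14.8 CPM at 12 months (log2 fold change 0.56, 95% interval 0.22 to 0.90, adjusted p = 1 by edgeR). Dusp1, a phosphatase that ends MAP kinase signalling, was at 21.3, 33.3 and 27.9 CPM at 18 months and at 15.8, 22.2 and 19.5 CPM at 12 months, where 1 library of each age crossed the other. Fos, the classic marker of recent neuronal activity, was at 12.3, 21.2 and 21.7 CPM at 18 months and at 4.00, 13.5 and 9.18 CPM at 12 months, with a log2 fold change of 1.06 (95% interval 0.01 to 2.1). Its libraries overlapped. The count of 5 was 2 without the 12-month replicate 28, 3 without the 12-month replicate 26 or the 18-month replicate 15 or 16, and 8 without the 18-month replicate 14. In 24 against 6 months the list median was 0.04.

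Of the cyclic AMP response element TGACGTCA, Dusp1 and Btg2 held a match among 19 immediate early genes with a promoter window, against 2.03% of all genes. The list shares Per1 with the clock list.

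Genes that respond to glucocorticoids, the adrenal stress hormones, were partly higher. Sgk1, a kinase that glucocorticoids induce, was at 67.4, 59.5 and 70.1 CPM at 18 months and at 29.5, 38.3 and 48.5 CPM at 12 months. Its libraries did not overlap and its log2 fold change was 0.76 (95% interval 0.28 to 1.25, adjusted p = 1 by edgeR). Klf9, a transcription factor induced by glucocorticoids and thyroid hormone, was at 90.5, 104 and 111 CPM at 18 months and at 74.2, 95.2 and 81.5 CPM at 12 months. The list had 4 of 18 members higher and 0 lower at an unadjusted p below 0.05, against 0.893% of all genes higher, with a median of 0.20, and 2 were left without the 12-month replicate 26. The 4 were Sgk1, Klf9, Nfkbia and Per1. Per1 is also counted in the clock and immediate early lists. Fkbp5, often used as a glucocorticoid marker and named here after its value was seen, had a log2 fold change of 0.16 (95% interval -0.10 to 0.42). In the other mice, at 24 against 6 months, Sgk1 had a log2 fold change of -0.28 and Klf9 one of -0.34.

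Genes of the list of chaperones and the unfolded protein response had lower values at 18 months. The list mixes chaperones of the endoplasmic reticulum, the cytosol and mitochondria. The unfolded protein response raises those of the endoplasmic reticulum when folding there lags. Of 25 members of the chaperone list, 7 were lower and 0 higher at an unadjusted p below 0.05, against 1.53% of all genes that were lower, and 23 of 25 were below 0 with a median log2 fold change of -0.09. The differences were small in size.

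Hsp90b1, the Hsp90 of the endoplasmic reticulum, was at 372, 369 and 365 CPM at 18 months and at 426, 438 and 426 CPM at 12 months. The ages did not overlap, and the log2 fold change was -0.22 (95% interval -0.33 to -0.11, adjusted p = 0.96 by edgeR). Calr, a lectin chaperone that binds calcium, was at 265, 259 and 261 CPM at 18 months and at 315, 320 and 333 CPM at 12 months, with no overlap and a log2 fold change of -0.30 (95% interval -0.45 to -0.15, adjusted p = 0.96 by edgeR). Within each age the spread of both genes was small, with an SD of 3.77 CPM at 18 months and 6.76 CPM at 12 months for Hsp90b1. Hspb1, a small cytosolic heat shock protein, was at 8.37, 12.8 and 10.02 CPM at 18 months and at 13.5, 12.9 and 18.8 CPM at 12 months.

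The other members at an unadjusted p below 0.05, named after their values were seen, were Hspa5 (log2 fold change -0.21), Pdia4 (-0.23), Cryab (-0.33) and Hspe1 (-0.21). Hspa5 encodes BiP, the main chaperone of the endoplasmic reticulum, and Pdia4 a disulfide isomerase there, while Cryab is a small cytosolic heat shock protein and Hspe1 a mitochondrial chaperonin. The cytosolic Hsp90ab1 had a log2 fold change of -0.08 (95% interval -0.21 to 0.06). The count of 7 was 3 without the 12-month replicate 28 and 4 without the 18-month replicate 16. Among the other adult ages, Hsp90b1 averaged 349, 359 and 416 CPM at 2, 6 and 24 months. At 24 against 6 months 13 of 25 members were higher and 0 lower at an unadjusted p below 0.05, where 4.55% of all genes were higher and 4.91% lower.

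The endoplasmic reticulum stress element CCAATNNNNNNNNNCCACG, known from promoters of endoplasmic reticulum chaperones, was found on either strand in 5 of 19 list genes with a window, and in 37 of all 27025 genes (0.137%). Hsp90b1, Calr and Hspa5 are printed because their 18-month libraries all lay below the 12-month libraries and their windows hold the element, which is in capitals. The other genes with a match were Canx and Creld2.
Hsp90b1, chr10:86705395-86705694, minus strand: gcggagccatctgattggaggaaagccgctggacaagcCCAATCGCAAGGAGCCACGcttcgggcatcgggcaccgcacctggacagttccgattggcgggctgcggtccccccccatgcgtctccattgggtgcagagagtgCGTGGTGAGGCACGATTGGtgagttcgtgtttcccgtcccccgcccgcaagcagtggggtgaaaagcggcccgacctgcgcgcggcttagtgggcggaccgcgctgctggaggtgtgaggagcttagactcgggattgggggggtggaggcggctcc
Calr, chr8:84846882-84847181, minus strand: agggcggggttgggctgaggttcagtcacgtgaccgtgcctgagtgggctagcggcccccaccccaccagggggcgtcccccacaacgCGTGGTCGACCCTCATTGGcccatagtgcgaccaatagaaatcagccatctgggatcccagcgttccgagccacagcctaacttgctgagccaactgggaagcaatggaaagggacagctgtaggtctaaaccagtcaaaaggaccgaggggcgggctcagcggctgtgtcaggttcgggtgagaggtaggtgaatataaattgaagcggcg
Hspa5, chr2:34771840-34772139, plus strand: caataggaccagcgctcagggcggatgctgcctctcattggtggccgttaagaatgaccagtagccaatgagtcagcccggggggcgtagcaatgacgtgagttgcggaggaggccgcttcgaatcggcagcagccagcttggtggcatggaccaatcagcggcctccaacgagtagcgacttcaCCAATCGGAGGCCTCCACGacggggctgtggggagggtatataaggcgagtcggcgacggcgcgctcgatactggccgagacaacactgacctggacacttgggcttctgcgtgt
The Hsp90b1 window held 2 matches, the others 1 each.

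Interferon-stimulated genes were mostly above 0. Interferons are signals of infection and inflammation that raise antiviral genes through cell surface receptors. Of 40 members, 36 had a log2 fold change above 0, where 48.9% of all genes did, the median was 0.29, and 8 were higher and 0 lower at an unadjusted p below 0.05, against 0.893% of all genes higher. Some other lists also lay mostly on 1 side of 0. Below 0 were 48 of 56 cytosolic ribosomal, 45 of 54 nuclear respiratory chain and 17 of 18 choroid plexus genes. Gbp3, a guanylate-binding GTPase, was at 8.04, 8.73 and 7.57 CPM at 18 months and at 4.62, 4.57 and 5.96 CPM at 12 months. The ages did not overlap (log2 fold change 0.68, 95% interval 0.34 to 1.03, adjusted p = 0.96 by edgeR). Ifit3b, an antiviral protein, was at 11.6, 10.6 and 11.2 CPM at 18 months and at 5.23, 5.96 and 8.95 CPM at 12 months, also with no overlap (log2 fold change 0.73, 95% interval 0.25 to 1.21, adjusted p = 1 by edgeR). Ifit3b has a near-identical copy, Ifit3, so the split of reads between them is uncertain.

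The summed level of the list was 463, 387 and 358 CPM at 18 months and 304, 301 and 426 CPM at 12 months, so the 12-month replicate 28 lay within the 18-month range. Without that library 21 of the 40 genes were higher at an unadjusted p below 0.05, against 3 without the 12-month replicate 27, 5 without the 18-month replicate 14 and 12 without the 18-month replicate 16. The list median was also above 0 in the mice of 24 against 6 months (0.43), where 16 members were higher and 0 lower at an unadjusted p below 0.05, against 4.55% of all genes higher. Gbp3 itself had a log2 fold change of -0.12 there (95% interval -0.50 to 0.26).

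A motif like the interferon-stimulated response element, GAAANNGAAA on either strand, was in 16 of 29 list genes with a window, against 3.99% of all genes. Gbp3 and Ifit3b are printed because they were the list members of smallest p, and the motif is in capitals, where overlapping matches run together.
Gbp3, chr3:142559794-142560093, plus strand: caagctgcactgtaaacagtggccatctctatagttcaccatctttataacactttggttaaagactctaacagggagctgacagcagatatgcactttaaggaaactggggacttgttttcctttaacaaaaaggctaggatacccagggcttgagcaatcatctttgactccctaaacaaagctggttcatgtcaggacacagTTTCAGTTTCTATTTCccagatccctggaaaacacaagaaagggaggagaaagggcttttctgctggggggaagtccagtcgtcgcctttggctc
Ifit3b, chr19:34607707-34608006, plus strand: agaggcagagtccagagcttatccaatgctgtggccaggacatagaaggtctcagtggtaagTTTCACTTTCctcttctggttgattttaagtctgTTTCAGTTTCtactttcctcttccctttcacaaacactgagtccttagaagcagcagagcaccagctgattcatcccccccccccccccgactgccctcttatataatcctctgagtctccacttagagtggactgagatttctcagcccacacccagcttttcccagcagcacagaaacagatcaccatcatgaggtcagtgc
Each window held 2 matches.

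**Figure D2:**
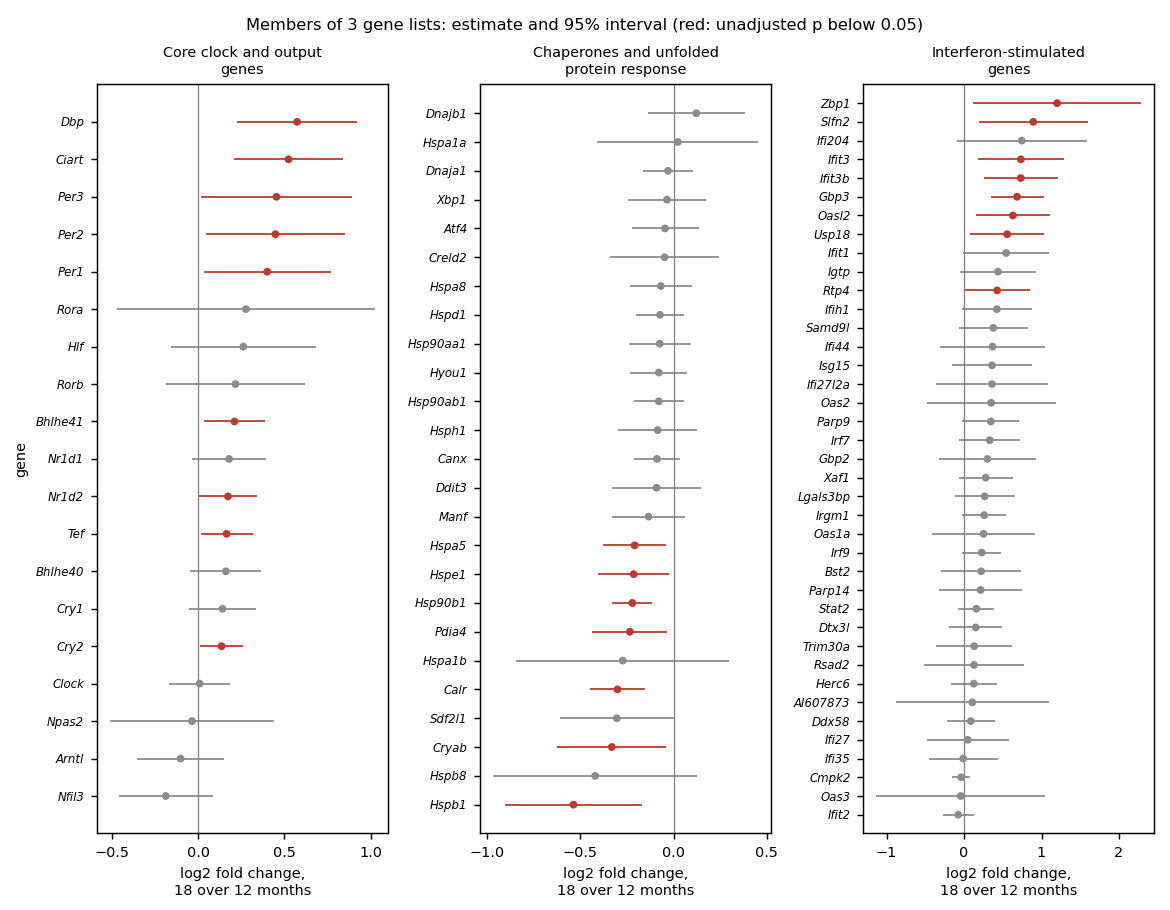
Log2 fold change of 18 months over 12 months (x axis) with its 95% interval for the tested members of the clock, chaperone and interferon lists (y axis, 1 interferon member not shown), with red for an unadjusted p below 0.05. The red clock and interferon members lie right of 0 and the red chaperones left of 0, and no member passed the adjusted threshold (AI607873 is the files' symbol for Ifi207).

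Genes of antigen presentation by class I molecules had a median log2 fold change of 0.14, with 14 of 21 above 0. The class I light chain B2m was at 137, 113 and 99.0 CPM at 18 months and at 82.3, 82.6 and 127 CPM at 12 months, with a log2 fold change of 0.26 (95% interval -0.01 to 0.53). Nlrc5, the activator of class I genes, was at 5.36, 1.98 and 1.86 CPM at 18 months and at 1.73, 1.20 and 1.57 CPM at 12 months, so that replicate 14 stood far above the others. Of 21 members, 2 were higher and 2 lower at an unadjusted p below 0.05, against 0.893% of all genes higher and 1.53% lower, and Calr is one of the lower ones. The count of 2 higher was 9 without the 12-month replicate 28, 1 without the 12-month replicate 26 or 27 and 0 without the 18-month replicate 14, and the count of 2 lower was 1 without the 12-month replicate 28 or the 18-month replicate 15. The class II genes H2-Ab1 and H2-Eb1 had log2 fold changes of -0.33 and -0.37, with intervals that span 0.

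Itgax, the integrin alpha X that microglia express when activated near plaques and in white matter, had the smallest unadjusted p of all genes. It was at 1.34, 1.82 and 2.54 CPM at 18 months and at 1.05, 0.542 and 0.392 CPM at 12 months. The ages did not overlap, with a log2 fold change of 1.51 (95% interval 0.83 to 2.18, unadjusted p = 9.82e-05, adjusted p = 0.916 by edgeR). Cst7, a cystatin of the same microglial state, was at 1.09, 0.776 and 1.43 CPM at 18 months and at 0.272, 0.774 and 0.432 CPM at 12 months, and the lowest 18-month library was level with the highest 12-month library (log2 fold change 1.17, 95% interval 0.37 to 1.97). Both genes are of low abundance, where 3 counts made 0.0857 to 0.116 CPM at 18 months and 0.102 to 0.118 CPM at 12 months.

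The wider set of 25 disease-associated microglia genes had 2 members higher and 0 lower at an unadjusted p below 0.05, against 0.893% of all genes higher, with a median of 0.15. Without the 12-month replicate 28 there were 12 higher. The homeostatic microglia genes had a median of 0.02, and their summed level was 2159, 2212 and 2083 CPM at 18 months and 2380, 2171 and 2582 CPM at 12 months. Aif1, a pan-microglial marker, had a log2 fold change of 0.02 (95% interval -0.29 to 0.33).

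In mice of other ages Itgax and Cst7 were also higher in the older group. Itgax rose at 24 against 6 months, at 1.61 and 2.00 CPM at 24 months and at 0.350, 0.395 and 0.458 CPM at 6 months (log2 fold change 2.17, adjusted p = 0.0262 by edgeR). Its mean over the adult ages was 0.166, 0.401, 0.662, 1.90 and 1.81 CPM at 2, 6, 12, 18 and 24 months. Cst7 rose there too, at 0.968 and 0.880 CPM at 24 months and at 0.175, 0.198 and 0.164 CPM at 6 months (log2 fold change 2.35, adjusted p = 0.0379 by edgeR).

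**Figure D3:**
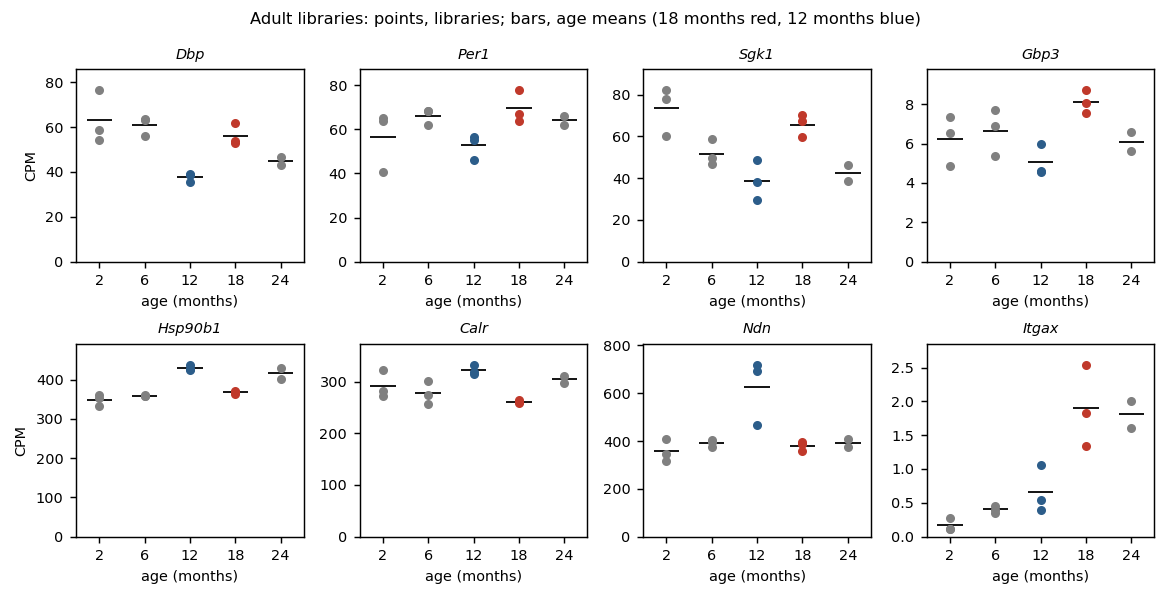
CPM (y axis, from 0) of 8 genes in each adult library at 2, 6, 12, 18 and 24 months (x axis), where points are libraries and bars are means, with 18 months in red and 12 months in blue. Dbp is lowest and Ndn highest at 12 months, and Itgax is higher at 18 and 24 months than at the earlier ages.

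The comparison of 24 with 6 months (2 and 3 libraries) called 18 genes, 0.106% of those tested, with 770 and 830 genes higher and lower at an unadjusted p below 0.05. These 18 were looked up in 18 against 12 months, which shares no library with it. Of the 18, 17 had the same sign, where 48.4% of all genes did. Of the 13 genes that rose at 24 months, 12 were above 0 at 18 months, with a median log2 fold change of 0.24. The 5 that fell had a median of -0.02, close to 0. In 4 of the 18 the unadjusted p at 18 against 12 months was also below 0.05, which are Itgax, Cst7, the protocadherin Pcdhb9 and the small RNA gene Rn7s2. Rn7s2 was at 5.74 CPM in the 18-month replicate 15, the library rich in small RNA, and at 0.362 and 0.571 CPM in the other 18-month libraries. The third 24-month library, with 2377580 counts in 1385 genes, was left out of the fit. The 18 calls rest on single libraries, since 0 were left without the 24-month replicate 2 or the 6-month replicate 32 or 34. Of all tested genes, 49.0% had a log2 fold change above 0 at 24 against 6 months. The reverse lookup started from genes at an unadjusted p below 0.05 at 18 against 12 months. Of these, 78 of 151 higher and 132 of 259 lower genes had the same sign at 24 against 6 months. Of the 24 named genes, 6 of 12 higher and 6 of 12 lower did. These shares were near the 48.4% of all genes.

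The remaining named genes higher at 18 months covered several functions. Lag3, an inhibitory receptor of the immunoglobulin family, was at 9.49, 9.58 and 10.05 CPM at 18 months and at 6.42, 5.65 and 7.57 CPM at 12 months, with a log2 fold change of 0.57 (95% interval 0.26 to 0.87, adjusted p = 1 by edgeR). Its mean at 24 months was 8.52 CPM and at 6 months 6.26 CPM. Surf6 and Nop9, proteins of the nucleolus that act in ribosome assembly, had log2 fold changes of 0.26 and 0.27. Tspan4, a tetraspanin of the cell surface, and Fstl4, a secreted follistatin-like protein, had 0.30 and 0.33. Pcdhb11, a clustered protocadherin used in neuronal self-recognition, was at 6.45, 6.01 and 8.74 CPM at 18 months and at 5.91, 4.18 and 4.98 CPM at 12 months. Members of this cluster are near-identical in part, so their counts are uncertain, and 3 of 23 of them were higher at an unadjusted p below 0.05, against 0.893% of all genes. That count was 0 without the 18-month replicate 16 and 1 without the 12-month replicate 28.

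Ndn was highest at 12 months among the adult ages. Ndn is an imprinted gene expressed from the paternal copy, in the region lost in Prader-Willi syndrome, and lies at chr7:62346569-62350262 on the plus strand (GRCm38, GENCODE). It was at 396, 359 and 387 CPM at 18 months and at 693, 469 and 719 CPM at 12 months, with a log2 fold change of -0.72 (95% interval -1.14 to -0.30, adjusted p = 1 by edgeR). All 18-month libraries were below all 12-month ones. In the 8 libraries of 2, 6 and 24 months Ndn was at 315 to 408 CPM, below each 12-month library. Its imprinted neighbour Magel2, named after its value was seen, had a log2 fold change of 0.25 (95% interval -0.28 to 0.77).

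Rbm28, a nucleolar RNA-binding protein, was at 37.5, 31.5 and 31.1 CPM at 18 months and at 45.4, 38.4 and 41.2 CPM at 12 months, with a log2 fold change of -0.32 (95% interval -0.48 to -0.16, adjusted p = 0.96 by edgeR). Adamts9, a protease that cuts matrix proteoglycans, was at 4.06, 3.41 and 3.37 CPM at 18 months and at 5.12, 4.49 and 7.69 CPM at 12 months. Plat, the tissue plasminogen activator, was at 32.8, 28.8 and 25.0 CPM at 18 months and at 33.5, 36.3 and 47.6 CPM at 12 months. Both were highest in the 12-month replicate 28, the library rich in meningeal RNA, and without it their log2 fold changes were -0.41 for Adamts9 and -0.28 for Plat, against -0.67 and -0.44 with all libraries. The cytoskeletal adaptor Kank1 (log2 fold change -0.34), the synuclein-binding protein gene Sncaip (-0.33), the growth factor carrier Fgfbp3 (-0.55), the forebrain regulator Pax6 (-0.42) and the astrocytic receptor component Tril (-0.27) were lower with no overlap. Rpl21 (-0.76) has many processed copies, so its count is uncertain, and the 56 other ribosomal protein genes had a median of -0.06.

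**Figure D4:**
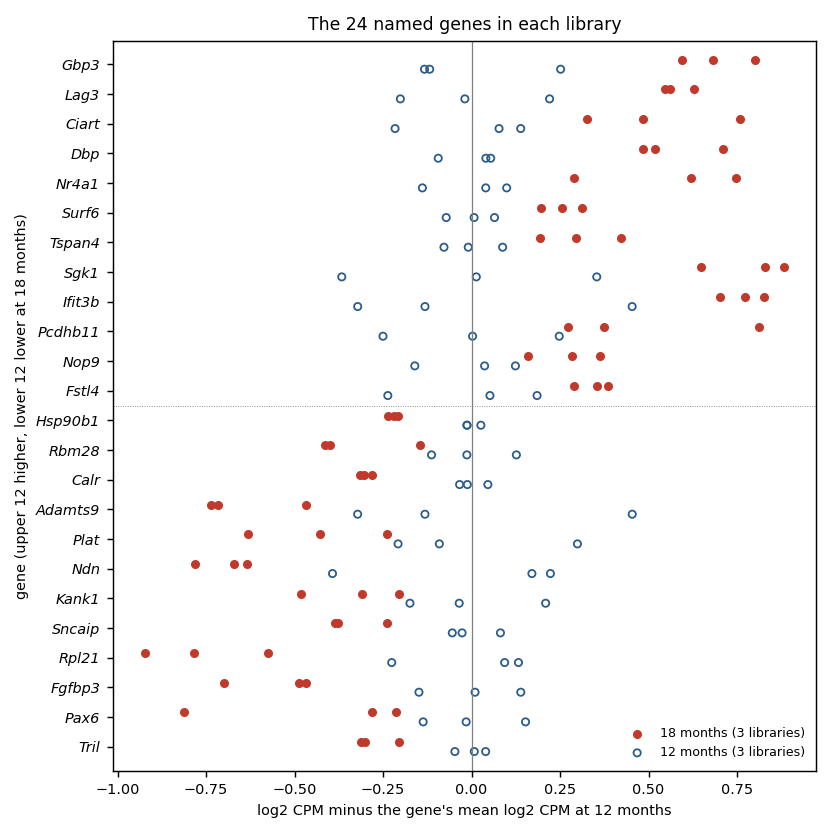
Log2 CPM of each library minus the gene's mean log2 CPM at 12 months (x axis) for the 24 named genes (y axis), with filled red points for the 18-month libraries and open blue points for the 12-month libraries. The groups do not overlap for any of the 24, as the naming rule requires, and the 12-month points of Adamts9, Ifit3b and Sgk1 spread the most.

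Hypothalamic neuropeptides showed no shared direction. Of 33 measured, 17 had a log2 fold change above 0 and 16 below, and the median was 0.01. Vip, the peptide of the suprachiasmatic nucleus, was at 15.9, 5.94 and 7.14 CPM at 18 months and at 6.28, 3.41 and 2.32 CPM at 12 months. It was the 1 member at an unadjusted p below 0.05 (log2 fold change 1.26, 95% interval 0.48 to 2.04, adjusted p = 1 by edgeR). The 12-month replicate 26 lay above the lowest 18-month library, and replicate 14 was the highest. Pmch, the melanin-concentrating hormone of the lateral hypothalamus, was at 17.9, 47.6 and 40.8 CPM at 18 months and at 60.9, 63.4 and 47.0 CPM at 12 months. Hcrt, the orexin of neighbouring neurons, was at 8.69, 87.2 and 92.3 CPM at 18 months and at 62.5, 74.8 and 58.2 CPM at 12 months. The 18-month replicate 14 was thus the lowest in both lateral peptides.

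Avp, the antidiuretic hormone, was at 728, 321 and 361 CPM at 18 months and at 399, 313 and 1045 CPM at 12 months. Oxt, oxytocin, was at 230, 138 and 140 CPM at 18 months and at 189, 178 and 284 CPM at 12 months. The feeding peptides Pomc, Agrp and Npy had log2 fold changes of -0.25, 0.14 and 0.30, each with an interval spanning 0. So did the releasing hormones Gnrh1 (0.06), Trh (0.04), Crh (0.16) and Ghrh (-0.41), and Kiss1 (0.87), Sst (0.15) and Gal (0.10). The tyrosine hydroxylase gene Th was at 56.4, 51.4 and 42.4 CPM at 18 months and at 42.0, 37.7 and 146 CPM at 12 months, where replicate 28 alone was high. Its log2 fold change was -0.58 (95% interval -1.73 to 0.56).

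Neuronal and myelin lists stayed close to 0. General neuron markers had a median of -0.0009, presynaptic genes 0.02, voltage-gated ion channels 0.05 and feeding and hormone receptors 0.04, with 0 members at an unadjusted p below 0.05 in each. Myelin genes had a median of -0.07 with 20 of 24 below 0, and Mbp, the myelin basic protein, was at 3694, 4876 and 4233 CPM at 18 months and at 4006, 4108 and 5593 CPM at 12 months. Proteasome genes had a median of -0.01 and lysosome genes one of -0.02. The cell cycle inhibitor Cdkn1a had a log2 fold change of -0.29 (95% interval -0.74 to 0.17).

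Of 18 homeostatic astrocyte markers, 3 were lower and 0 higher at an unadjusted p below 0.05, against 1.53% of all genes lower, and 16 were below 0, against 51.0% of all genes. The count of 3 was 0 without the 12-month replicate 28 or the 18-month replicate 16. Gja1, the main gap junction protein of astrocytes, was at 236, 259 and 230 CPM at 18 months and at 280, 262 and 289 CPM at 12 months, with no overlap and a log2 fold change of -0.20 (95% interval -0.35 to -0.04, adjusted p = 1 by edgeR). Gfap, the intermediate filament of reactive astrocytes, was at 438, 293 and 283 CPM at 18 months and at 324, 225 and 856 CPM at 12 months. The complement gene C4b was at 160, 67.3 and 91.9 CPM at 18 months and at 65.4, 43.8 and 105 CPM at 12 months, with a log2 fold change of 0.58 (95% interval -0.05 to 1.20). Il33, an alarmin of oligodendrocytes and astrocytes, and Igf1, a growth factor, had log2 fold changes of 0.17 and 0.15 with intervals spanning 0.

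Meningeal and blood genes were below 0 with all libraries, and most of the difference was gone without 1 of them. All 18 fibroblast and meninges genes were below 0, with a median of -0.70, and so were all 11 blood cell genes, with a median of -0.66. Without the 12-month replicate 28 the medians were -0.11 and 0.02. With all libraries, 1 member of each list had an unadjusted p below 0.05. The summed level of the meningeal list was 614, 555 and 485 CPM at 18 months and 588, 668 and 1481 CPM at 12 months, and that of the blood list was 316, 378 and 335 CPM at 18 months and 349, 352 and 739 CPM at 12 months. In both lists the 12-month replicate 28 was the highest, and the other 12-month libraries lay within or near the 18-month range. The 20 endothelial genes had a median of -0.06, with 7 above 0, and 2 were lower and 0 higher at an unadjusted p below 0.05, with 0 lower and 2 higher without the 12-month replicate 28. Cldn5, the tight junction claudin of endothelium and the list member furthest below 0, was at 28.3, 41.4 and 35.7 CPM at 18 months and at 44.8, 48.9 and 60.9 CPM at 12 months (log2 fold change -0.55, 95% interval -0.99 to -0.12).

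The plot of list medians places these groups beside the same lists in 24 against 6 months. Chaperones had medians of -0.09 and 0.19 in the 2 comparisons, pericyte and smooth muscle genes -0.06 and -0.52, and interferon genes 0.29 and 0.43. Whether a list differed between the comparisons was not tested.

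**Figure D5:**
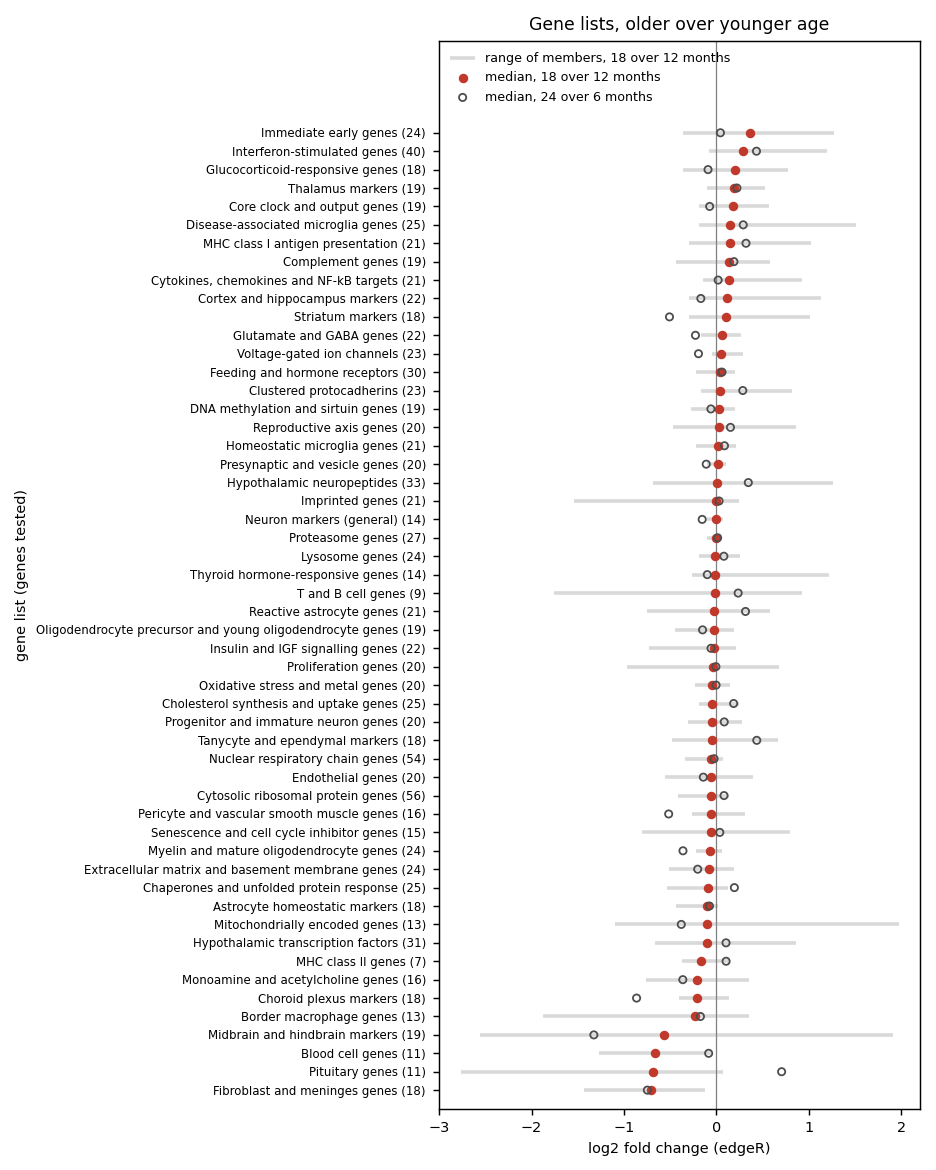
Median log2 fold change (x axis) of the tested members of 53 gene lists (y axis, with the number tested), with red points for 18 over 12 months and open points for 24 over 6 months, with grey bars for the range of members in 18 over 12 months. Immediate early and interferon genes have the highest medians at 18 over 12 months and fibroblast and meninges genes the lowest.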

How the data were processed

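Hypothalamic RNA was sequenced as paired ends. The authors deposited raw counts per gene for each library, and HISAT2 2.1.0, HTSeq 0.9.1 and the build mm10/GRCm38 are named in the submitters' processing notes. The strand setting of the counting was not given in the sources used here. Overlapping and antisense genes are therefore uncertain. The 5 summary lines of each file were dropped. Counts were scaled by trimmed mean of M-values (TMM) to CPM, and 16916 of 24499 genes passed edgeR's filter on low counts.

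One quasi-likelihood fit (edgeR 4.0.16, R 4.3.3) over 28 of 29 libraries, with age as the only factor, gave every fold change, 95% interval and Benjamini-Hochberg adjusted p. It shares 1 estimate of the spread over all ages. A 24-month library of 2377580 counts was left out. DESeq2 1.42.0, other scalings, filters and sets of libraries, and leaving out each replicate were alternatives.

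With no gene called, the text names the 12 genes of smallest p in each direction among genes averaging 5 CPM or more in 1 of the ages whose libraries did not overlap, up to 2 members of smallest p per list, and a panel of 29 genes. Values of 1 interferon list member are not reported here. Other genes are said to be chosen after their values were seen. The members and the 53 lists were chosen with earlier results of these data known. Promoter windows came from RefSeq (GRCm38.p6), and gene positions from GENCODE. With 3 libraries an age, precision is limited to the intervals given, and limits from counts cover counting error only.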

Additional observations from a re-analysis of the deposited data

How the results depend on the processing

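In 18 against 12 months edgeR called 0 genes in every alternative run, and DESeq2 called 1, lower at 18 months. The count at an unadjusted p below 0.05 was 410, ran from 309 to 664 with 1 library left out, and was 37 with all 29 libraries in the fit, the fewest of the alternatives run. With all 29 libraries, 0 members were left at an unadjusted p below 0.05 in the clock (9), chaperone (7, lower), interferon (8), immediate early (5), glucocorticoid (4), protocadherin (3) and homeostatic astrocyte (3, lower) lists, while their medians moved little (0.18 for clock, -0.09 for chaperones, 0.29 for interferon, 0.37 for immediate early and 0.20 for glucocorticoid genes). No paired analysis was possible because the 18-month and 12-month libraries share no replicate number.

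In 24 against 6 months the 18 calls (13 higher, 5 lower) became 11 with no filter on low counts (8 higher, 3 lower), 1 with only the libraries of 2 to 24 months (1 higher, 0 lower), 0 with only the ages compared, 0 with all 29 libraries and 109 in DESeq2 (54 higher, 55 lower). Without TMM 20 were higher. Leaving out 1 library gave 0 to 20 calls, of which 0 to 15 were higher and 0 to 9 lower. The cause was not tested.

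Genes named by rule or in the panel were followed with 1 library left out. Among those given in the text, the log2 fold change of 18 over 12 months took both signs for 16, none of them called. Other genes in the text, such as Nkx2-1, Dcn and Magel2, were not followed in this way. It ran from -0.49 to 0.45 for Agrp, -0.10 to 0.23 for Aif1, -0.78 to 0.40 for Avp, -0.46 to 0.0208 for Cdkn1a, -0.11 to 0.40 for Crh, -0.0603 to 0.22 for Gal, -0.80 to 0.30 for Gfap and -0.68 to 0.39 for Gnrh1. It ran from -0.65 to 0.34 for H2-Ab1, -0.79 to 0.32 for H2-Eb1, -0.45 to 0.46 for Hcrt, -0.20 to 0.073 for Mbp, -0.48 to 0.19 for Pomc, -0.90 to 0.33 for Th, -0.0336 to 0.18 for Trh and -1.18 to 1.05 for Ttr. Of these 16, the sign turned for Avp, Cdkn1a, Crh, Gfap, H2-Ab1, H2-Eb1, Mbp, Pomc, Th and Ttr without the 12-month replicate 28. The cause was not tested.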
